A study of Mus musculus with 9 samples.

Results

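A set of 41 genes of the neuronal cytoskeleton, synapse and axon, with the RNA-binding proteins and transcription factors that act beside them, was followed in E9.5 mouse embryos lacking SR-B1, the receptor for high-density lipoprotein encoded by *Scarb1*. They were listed by name, as genes used across many kinds of neuron, without proneural and LIM factors. The rule itself used no measured value, but the genes were chosen with earlier results of these data known. All 41 were found among the 24330 genes used from the deposited expression table. The embryos fell into 3 groups on a C57Bl/6J x 129S2 background. KO-NTD embryos were SR-B1 knockouts with a neural tube defect, KO-N embryos were SR-B1 knockouts of normal morphology, and WT embryos carried the functional gene. Each group had 3 samples, each a pool of 3 whole embryos labelled female. The deletion is present in every cell of a knockout embryo, and the 2 knockout groups were separated by the form of the embryo alone.

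Neurons are born from dividing progenitors of the neural tube and of the cranial and trunk ganglia, and at E9.5 the first of them have only just left the cell cycle. A young neuron changes its RNA processing, represses progenitor programmes and builds an axon, which needs dedicated tubulins, stathmins and other microtubule-associated proteins, neurofilaments, adhesion molecules and receptors for guidance cues. Synaptic vesicle genes are also transcribed at this stage, although synapses form later.

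Expression was given by the authors as FPKM, counts of fragments divided by transcript length and library size, with lower and upper confidence bounds from Cufflinks. The deposited value is 1 per group, combined from its 3 samples, so the spread between pools cannot be seen and no test between groups could be run. The authors' own tests of the genes they listed were not used. Differences are given as log2 ratios of FPKM + 0.1, which understate the difference of genes of low level. Their 95% intervals were computed from the authors' bounds. A gene was counted as lower or higher where its log2 ratio was at least 0.4 from 0. The table of all genes also has a column headed Control, which matches no label and was not taken to be WT.

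The deleted gene *Scarb1* was at 3.12 FPKM in KO-NTD embryos and 3.34 FPKM in KO-N embryos, against 17.1 FPKM in WT embryos and 12.4 FPKM in the column headed Control. The samples are labelled female, yet 4 of 4 Y-linked genes had levels above 0 in each group. *Eif2s3y* was at 5.12 FPKM in KO-NTD embryos, 5.69 FPKM in KO-N embryos, 9.98 FPKM in the column headed Control and 10.5 FPKM in WT embryos, and *Ddx3y*, *Uty* and *Kdm5d* likewise differed little between the knockout groups. Summed over the 4 genes, the level was 11.5 FPKM in KO-NTD embryos, 12.2 FPKM in KO-N embryos and 22.7 FPKM in the column headed Control. Of the 41 genes, 3 are X-linked (*Dcx*, *L1cam* and *Syp*), and the part of a different share of males in the comparisons with that column and with WT was not tested. Across all 24330 genes the median log2 ratio of KO-NTD over KO-N was 0.

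To show the sequence next to the start sites of these genes, promoter windows of 300 bases (250 before and 50 after the most upstream start) were taken from RefSeq on GRCm38.p6, the assembly that the submitters name mm10. Of the 41 genes, 27 had a window. The windows below belong to the 4 genes with the lowest KO-NTD to KO-N ratios that had one and, for contrast, to *Robo3*, the gene with the highest ratio. Each reads 5′ to 3′ on the gene's own strand, and capitals mark E-boxes, the letters CANNTG to which proneural bHLH factors bind. *Elavl3* is at chr9:22051974-22052273 (minus strand), *Dcx* at chrX:143933170-143933469 (minus strand), *Myt1* at chr2:181763082-181763381 (plus strand), *Elavl4* at chr4:110351862-110352161 (minus strand) and *Robo3* at chr9:37433126-37433425 (minus strand).
Elavl3: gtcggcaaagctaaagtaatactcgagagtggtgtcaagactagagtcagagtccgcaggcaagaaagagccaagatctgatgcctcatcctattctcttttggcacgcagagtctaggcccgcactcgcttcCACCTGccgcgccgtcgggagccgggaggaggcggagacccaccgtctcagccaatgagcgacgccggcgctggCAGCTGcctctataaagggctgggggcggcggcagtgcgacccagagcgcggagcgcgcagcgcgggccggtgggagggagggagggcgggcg
Dcx: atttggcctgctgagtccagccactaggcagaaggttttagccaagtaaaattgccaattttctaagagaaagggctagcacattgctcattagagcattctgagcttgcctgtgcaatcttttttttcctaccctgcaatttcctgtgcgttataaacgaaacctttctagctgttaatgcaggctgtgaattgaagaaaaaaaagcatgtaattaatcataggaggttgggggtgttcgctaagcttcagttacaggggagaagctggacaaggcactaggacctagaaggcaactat
Myt1: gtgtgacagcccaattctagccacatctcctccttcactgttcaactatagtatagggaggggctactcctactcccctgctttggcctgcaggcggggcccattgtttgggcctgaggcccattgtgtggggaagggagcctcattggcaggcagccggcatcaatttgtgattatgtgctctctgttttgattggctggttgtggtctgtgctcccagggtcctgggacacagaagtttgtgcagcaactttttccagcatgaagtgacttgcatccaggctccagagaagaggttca
Elavl4: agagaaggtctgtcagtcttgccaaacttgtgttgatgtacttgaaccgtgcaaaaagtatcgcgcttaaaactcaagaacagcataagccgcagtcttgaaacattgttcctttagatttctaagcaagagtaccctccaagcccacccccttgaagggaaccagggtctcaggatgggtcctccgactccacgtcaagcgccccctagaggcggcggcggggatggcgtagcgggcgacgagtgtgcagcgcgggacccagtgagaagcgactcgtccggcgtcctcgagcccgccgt
Robo3: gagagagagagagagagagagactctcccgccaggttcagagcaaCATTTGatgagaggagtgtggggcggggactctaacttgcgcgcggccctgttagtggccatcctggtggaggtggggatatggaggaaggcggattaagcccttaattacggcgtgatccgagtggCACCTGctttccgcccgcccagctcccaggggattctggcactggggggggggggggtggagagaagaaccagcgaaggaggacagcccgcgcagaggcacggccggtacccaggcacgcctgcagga

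The E-boxes of the *Elavl3* window begin at positions -117 and -43 from the start site, and those of the *Robo3* window at -205 and -78, while the windows of *Dcx*, *Myt1* and *Elavl4* hold none. An E-box was found in 16 of the 27 windows, or 59.3%, against 72.1% of all 27025 windows of the same length. Of its particular forms, CAGATG was in 6 windows (22.2%, against 17.3% of all windows) and CAGCTG in 5 (18.5%, against 16.1%). The RE1 element bound by REST, a repressor that keeps neuronal genes off in other cells, was searched as its left part TTCAGCACC, its right part GGACAG and both joined with any pair of bases between them. The left part and the joined form were in 0 of the 27 windows, against 0.37% and 0.0111% of all windows, and the right part was in 9 (33.3%, against 22.1%). All motifs were searched on both strands. The median GC content of the windows was 61.0% for the neuronal genes, from 40.0% to 78.3%, against 52.7% for all windows. Such matches describe the letters of these windows alone.

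KO-NTD embryos had lower levels of most of the neuronal genes than KO-N embryos. Since the genes were chosen with earlier results of these data known, the counts below are no independent finding. Of the 41, 26 were at least 0.4 lower on the log2 scale, a size of difference reached in that direction by 4.32% of all genes, and 0 were at least 0.4 higher, against 4.44% of all genes. Any difference below 0 was found in 39 of the 41, against 44.7% of all genes. The 2 genes above 0 were *Prph* and *Robo3*, and 36.1% of all genes were above 0. The median log2 ratio of the 41 was -0.50, within a range of -1.35 for *Elavl3* to 0.34 for *Robo3*. Because whole embryos were sampled, fewer neurons per embryo and less RNA per neuron cannot be told apart.

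The 95% interval of the log2 ratio lay wholly below 0 in 22 of the 41 genes, against 1.7% of all genes, and wholly above 0 in 0 of the 41, against 1.42%. In 15 of the 41 the authors' confidence bounds of the 2 groups did not overlap, with KO-NTD below KO-N, against 0.666% of all genes. Where the 2 groups averaged 0.5 FPKM or more, 20 of 31 neuronal genes were lower, against 3.77% of all such genes, and all 31 had a ratio below 0, against 58.3%. At the border of the count, *Nefl* had a log2 ratio of -0.42 and *Elavl2* of -0.38, so these neighbours lie on either side of it with nearly the same difference. With the pseudocount of 0.1, 5 genes were lower by 2-fold or more, *Elavl3*, *St18*, *Dcx*, *Myt1* and *Elavl4*. With a pseudocount of 1 in its place, which shrinks the ratios of genes of low level, 12 of the 41 were lower by at least 0.4, the median was -0.30 and *Elavl3* had -0.86.

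**Figure D1:**
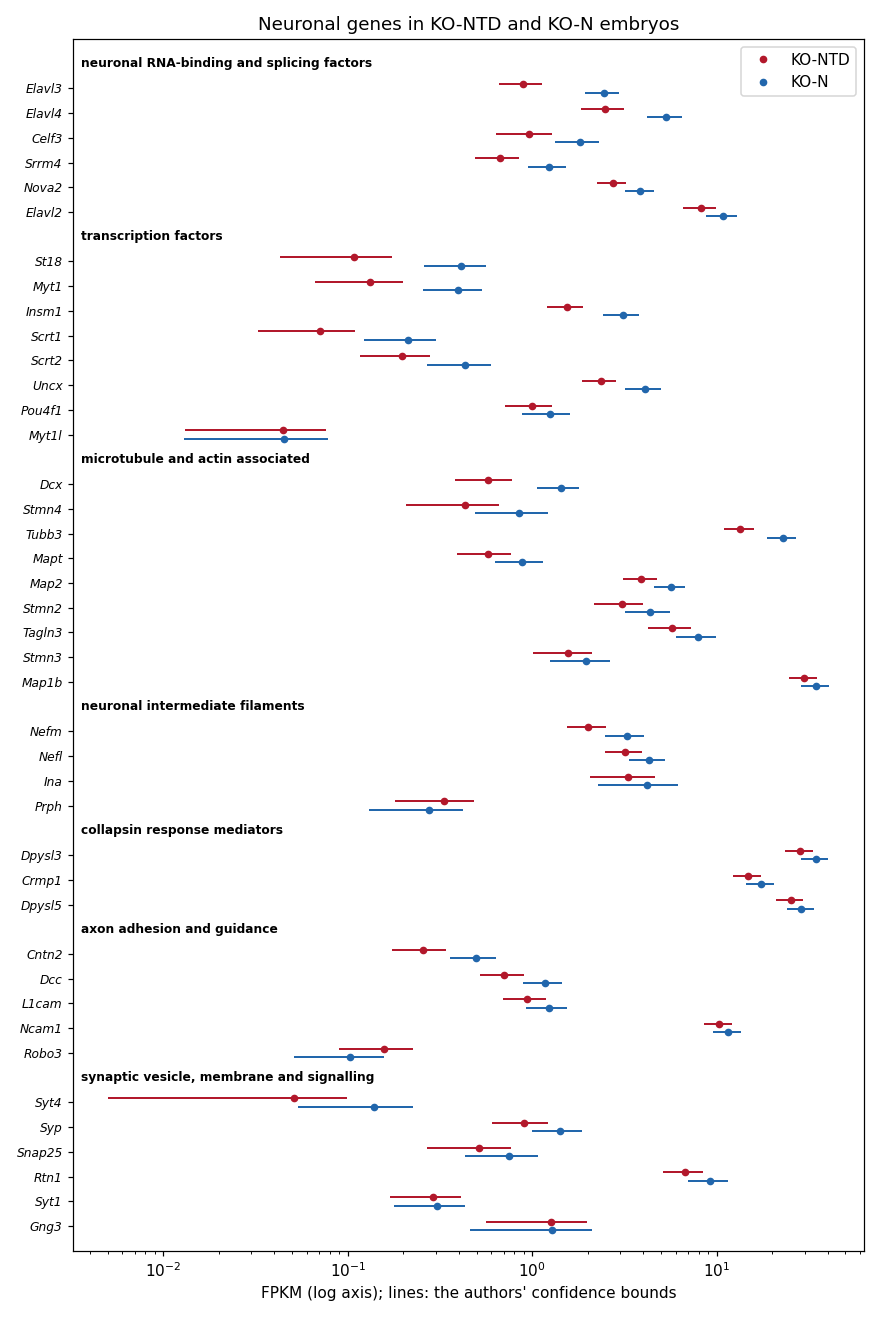
Levels of the 41 neuronal genes in KO-NTD (red, upper point of each pair) and KO-N embryos (blue, lower point), as FPKM on a log axis, ordered by role and, within a role, by ratio. Points are the authors' combined value of a group and lines their confidence bounds. The bounds of the 2 groups are apart in 15 genes, *Elavl3*, *St18*, *Dcx* and *Tubb3* among them, and KO-NTD lies to the right of KO-N only for *Prph* and *Robo3*.

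For the counts by role from here on, the shares of all genes were 4.32% lower and 4.44% higher. Among the neuronal RNA-binding and splicing factors, 5 of 6 genes were lower in KO-NTD embryos, with a median log2 ratio of -0.83. *Elavl3* and *Elavl4* encode Hu proteins, which bind AU-rich sequences of neuronal mRNAs and stabilise them. *Elavl3* (chr9:22015005-22052023 of mm10, minus strand) was at 0.896 FPKM in KO-NTD embryos (bounds 0.672 to 1.12), against 2.44 FPKM in KO-N embryos (1.96 to 2.92). The log2 ratio of *Elavl3* was -1.35 (95% interval -1.77 to -0.93), the lowest of the 41. *Elavl4* (chr4:110203737-110351911, minus strand) was at 2.49 FPKM (1.86 to 3.12) in KO-NTD embryos, against 5.35 FPKM (4.25 to 6.44) in KO-N embryos, a log2 ratio of -1.07 (-1.52 to -0.62). For both genes the bounds of the groups were apart. The third Hu gene of neurons, *Elavl2*, had the highest level of these 3 genes and the smallest difference, 8.27 FPKM in KO-NTD against 10.8 FPKM in KO-N embryos, a log2 ratio of -0.38 (-0.75 to -0.02).

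Genes of neuronal splicing differed in the same direction. *Srrm4*, an activator of microexons in neural transcripts, was at 0.669 FPKM in KO-NTD embryos, against 1.24 FPKM in KO-N embryos, with a log2 ratio of -0.80 (-1.23 to -0.37). *Celf3*, an RNA-binding protein of the nervous system, was at 0.957 FPKM in KO-NTD embryos and 1.81 FPKM in KO-N embryos, with a log2 ratio of -0.86 (-1.39 to -0.32). *Nova2*, which sets the splicing of axon guidance and synaptic transcripts, differed less, with 2.74 FPKM in KO-NTD against 3.86 FPKM in KO-N embryos and a log2 ratio of -0.48 (-0.81 to -0.15). In the gene annotation, 31.7% of its exon bases are shared with a gene of the opposite strand. The intervals of all 6 genes of this group were below 0.

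Of the transcription factors, 6 of 8 were lower in KO-NTD embryos, with a median log2 ratio of -0.85. *St18*, *Myt1* and *Myt1l* form a family of zinc-finger transcription factors of the nervous system. *St18* (chr1:6487231-6860940, plus strand) was at 0.108 FPKM in KO-NTD embryos (0.0433 to 0.172), against 0.409 FPKM in KO-N embryos (0.261 to 0.557), a log2 ratio of -1.29 (-1.89 to -0.69). *Myt1* (chr2:181763332-181827775, plus strand) was at 0.132 FPKM (0.0675 to 0.197), against 0.394 FPKM (0.26 to 0.529) in KO-N embryos, a log2 ratio of -1.09 (-1.64 to -0.54). These 2 genes had low levels and wide bounds, and the bounds were still apart. With a pseudocount of 1, the ratios of *St18* and *Myt1* were -0.35 and -0.30. *Myt1l*, the member of the family found in neurons after their last division, had the lowest mean level of the 41 genes, 0.0446 FPKM in KO-NTD embryos and 0.0454 FPKM in KO-N embryos, and its ratio of -0.01 (-0.45 to 0.43) at this level shows neither a difference nor its absence.

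*Insm1*, a zinc-finger factor of newborn neurons and of dividing neuronal progenitors, was at 1.54 FPKM in KO-NTD embryos (1.22 to 1.87), against 3.11 FPKM in KO-N embryos (2.44 to 3.77). This is a log2 ratio of -0.96 (-1.37 to -0.56). The Scratch genes *Scrt1* and *Scrt2*, repressors of the Snail superfamily that act as neurons leave the progenitor layer, had log2 ratios of -0.87 (-1.37 to -0.36) and -0.84 (-1.41 to -0.28). *Scrt1* was at 0.0705 FPKM in KO-NTD embryos and 0.211 FPKM in KO-N embryos, and *Scrt2* at 0.197 and 0.432 FPKM in the same groups. *Uncx*, a homeobox gene of the spinal cord and brain that is also active in the caudal part of each somite, was at 2.35 FPKM in KO-NTD against 4.07 FPKM in KO-N embryos, a log2 ratio of -0.76 (-1.16 to -0.37). The smallest difference among the factors over 0.5 FPKM was that of *Pou4f1* (Brn3a), a factor of sensory neurons, with 0.994 FPKM in KO-NTD against 1.24 FPKM in KO-N embryos and a log2 ratio of -0.30 (-0.80 to 0.21).

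Of the microtubule-associated and actin-associated genes, 7 of 9 were lower in KO-NTD embryos, with a median log2 ratio of -0.52. *Dcx* encodes doublecortin, a microtubule-binding protein of migrating and growing neurons. It lies on the X chromosome (chrX:143855842-143933219, minus strand) and was at 0.576 FPKM in KO-NTD embryos (0.385 to 0.766), against 1.43 FPKM in KO-N embryos (1.08 to 1.78), a log2 ratio of -1.18 (-1.70 to -0.67). *Tubb3*, the neuronal β-tubulin (chr8:123411564-123422010, plus strand), was at 13.4 FPKM (11.1 to 15.7) in KO-NTD against 22.9 FPKM (19.1 to 26.7) in KO-N embryos. The log2 ratio was -0.77 (-1.10 to -0.43), and among the 6 genes that averaged 10 FPKM or more it was the only one counted as lower. *Map2*, a marker of dendrites, was at 3.91 FPKM in KO-NTD against 5.65 FPKM in KO-N embryos, a log2 ratio of -0.52 (-0.89 to -0.15).

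*Mapt*, which encodes the axonal protein tau, was at 0.576 FPKM in KO-NTD against 0.882 FPKM in KO-N embryos, a log2 ratio of -0.54 (-1.05 to -0.02). The 3 stathmins, which bind free tubulin and promote the shrinking of microtubules, had log2 ratios of -0.84 (*Stmn4*, -1.64 to -0.05), -0.50 (*Stmn2*, -1.02 to 0.02) and -0.31 (*Stmn3*, -0.96 to 0.34). The interval of *Stmn4* alone of these was below 0, at levels of 0.43 FPKM in KO-NTD against 0.852 FPKM in KO-N embryos. *Tagln3*, a neuronal relative of the actin-binding transgelin, was at 5.73 FPKM in KO-NTD against 7.97 FPKM in KO-N embryos, a log2 ratio of -0.47 (-0.94 to 0.00). *Map1b*, an early axonal microtubule-associated protein and one of the most abundant of the 41 genes, was at 29.9 FPKM (25.2 to 34.6) in KO-NTD embryos and 34.5 FPKM (29.0 to 40.0) in KO-N embryos, with a log2 ratio of -0.21 (-0.52 to 0.11).

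**Figure D2:**
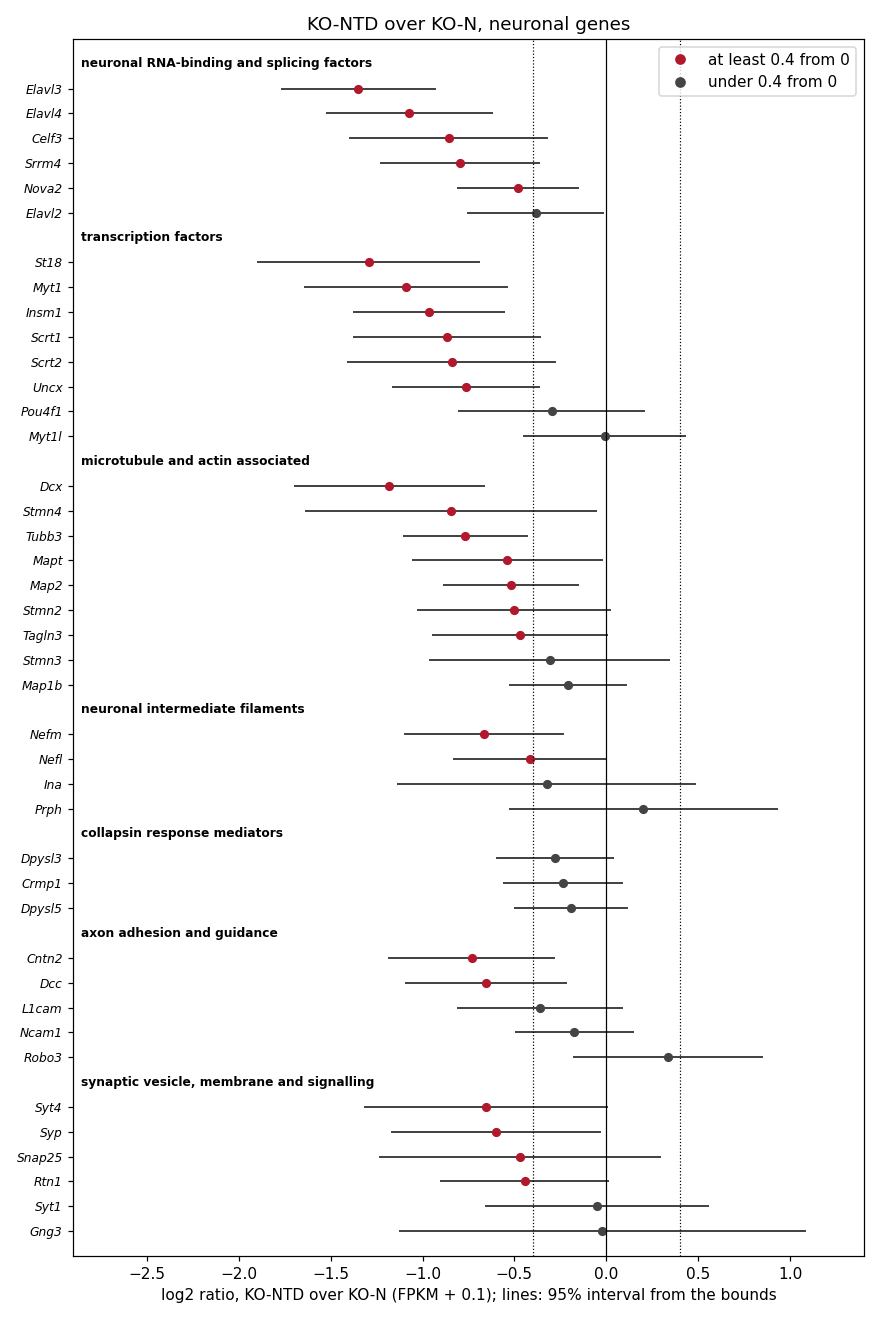
Log2 ratio of KO-NTD over KO-N, from FPKM + 0.1, for each of the 41 neuronal genes, ordered by role. Points are the ratios, red where at least 0.4 from 0 (dotted lines), and lines the 95% intervals from the authors' bounds. In 26 genes the point is at or beyond -0.4 and in 22 the whole interval is below 0, while the 3 collapsin response mediators, at -0.19 to -0.28, and the 2 genes right of 0, *Prph* and *Robo3*, are all under 0.4 from 0.

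The neuronal intermediate filaments were mixed, with 2 of 4 lower and a median log2 ratio of -0.37. *Nefm*, the medium neurofilament subunit, was at 2.02 FPKM in KO-NTD against 3.26 FPKM in KO-N embryos, a log2 ratio of -0.66 (-1.09 to -0.23). *Nefl*, the light subunit, was at 3.19 against 4.30 FPKM in these groups, and *Ina*, α-internexin, which precedes the neurofilaments in development, at 3.33 against 4.19 FPKM, with a log2 ratio of -0.32 (-1.13 to 0.48). *Prph* (peripherin), a filament of peripheral and cranial neurons, was the only one above 0, with 0.331 FPKM (0.182 to 0.48) in KO-NTD embryos and 0.275 FPKM (0.133 to 0.417) in KO-N embryos, with a log2 ratio of 0.20 (-0.53 to 0.93). In the GENCODE annotation, *Nefl* and *Nefm* share 32.8% and 19.2% of their exon bases with each other on opposite strands. *Ina* shares 14.1% with another gene of the opposite strand. The deposited loci of *Nefl* (chr14:68083884-68087737) and *Nefm* (chr14:68119545-68131371) do not overlap.

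None of the 3 collapsin response mediators passed the threshold, and the median of their log2 ratios was -0.23. These proteins bind tubulin and carry repulsive guidance signals to the axon. *Dpysl3* was at 28.4 FPKM in KO-NTD against 34.4 FPKM in KO-N embryos, *Dpysl5* at 25.3 against 28.8 FPKM and *Crmp1* at 14.9 against 17.5 FPKM. Each of the 3 was lower in KO-NTD embryos by a log2 ratio between -0.28 and -0.19, and each interval included 0.

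Of the genes of axon adhesion and guidance, 2 of 5 were lower in KO-NTD embryos. *Cntn2* (contactin-2, also called TAG-1), an adhesion molecule of early axons, was at 0.257 FPKM in KO-NTD embryos (0.176 to 0.339), against 0.494 FPKM in KO-N embryos (0.362 to 0.626), a log2 ratio of -0.73 (-1.18 to -0.28). *Dcc*, the netrin receptor that draws commissural axons to the ventral midline, was at 0.708 FPKM (0.526 to 0.89) in KO-NTD against 1.17 FPKM (0.908 to 1.44) in KO-N embryos, a log2 ratio of -0.66 (-1.09 to -0.22). The bounds were apart for both genes.

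The adhesion molecules *L1cam* and *Ncam1* had ratios of -0.36 (-0.81 to 0.09) and -0.17 (-0.49 to 0.15). *L1cam* was at 0.939 FPKM in KO-NTD against 1.24 FPKM in KO-N embryos, and *Ncam1*, which is not limited to neurons, at 10.3 against 11.6 FPKM. *Robo3*, a receptor of the Slit pathway that lets commissural axons cross the midline, was the one gene of this role above 0. It was at 0.157 FPKM (0.0907 to 0.223) in KO-NTD embryos and 0.103 FPKM (0.052 to 0.155) in KO-N embryos, with a log2 ratio of 0.34 (-0.17 to 0.85), so the 2 commissural receptors *Dcc* and *Robo3* lay on opposite sides of 0. Their difference was not tested.

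Of the synaptic and membrane genes, 4 of 6 were lower in KO-NTD embryos with a median log2 ratio of -0.46. *Syp*, synaptophysin of the synaptic vesicle membrane, was at 0.905 FPKM in KO-NTD against 1.43 FPKM in KO-N embryos, a log2 ratio of -0.60 (-1.17 to -0.04), the only interval of this role below 0. *Syt4* and *Syt1* encode synaptotagmins, proteins of the vesicle membrane. *Syt4* was at 0.0514 FPKM in KO-NTD against 0.138 FPKM in KO-N embryos (log2 ratio -0.65, -1.31 to 0.01), and *Syt1* at 0.29 against 0.304 FPKM (-0.05, -0.65 to 0.56).

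*Snap25*, a SNARE protein of vesicle fusion, was at 0.513 FPKM in KO-NTD against 0.749 FPKM in KO-N embryos (log2 ratio -0.47, -1.23 to 0.29). *Rtn1*, a reticulon of the neuronal endoplasmic reticulum and the most abundant gene of this role, was at 6.76 against 9.23 FPKM (-0.44, -0.90 to 0.01). *Gng3*, a G-protein γ subunit of neurons, was at 1.26 FPKM in KO-NTD embryos and 1.28 FPKM in KO-N embryos, with an interval of -1.12 to 1.08 that allows a difference of 2-fold in either direction. *Syt4*, *Syp* and *Gng3* share 14.5%, 16.8% and 24.2% of their exon bases with a gene of the opposite strand.

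The size of the difference was set beside the level. Under 1 FPKM, 11 of 15 neuronal genes were lower in KO-NTD embryos, with a median log2 ratio of -0.66. Between 1 and 10 FPKM, 14 of 20 were lower (median -0.49), and at 10 FPKM or more, 1 of 6 (median -0.22). Of all genes at any level, 4.32% were lower. Their share within each of these level classes was not computed, so the trend with level was not set against that of all genes. The 5 abundant genes that did not pass the threshold were *Map1b*, *Dpysl3*, *Dpysl5*, *Crmp1* and *Ncam1*. As a description over the 41 genes, which share the same libraries, Spearman's rho of mean level and log2 ratio was 0.19. The differences were thus found both in genes near the lower end of measurement and in genes of several FPKM such as *Elavl4*, *Insm1* and *Uncx*.

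Many of these genes belong to families with broadly expressed members. Some of those, chosen after their values were seen, were set beside the neuronal genes. *Elavl1* (HuR), the Hu protein of all cells, was at 58.1 FPKM in KO-NTD embryos and 62.4 FPKM in KO-N embryos, with a log2 ratio of -0.10 (-0.41 to 0.21), where *Elavl3* had -1.35. *Tubb5*, the most abundant β-tubulin examined, had a log2 ratio of -0.07 (-0.48 to 0.35), where *Tubb3* had -0.77. *Celf1* (-0.08), *Srrm1* (-0.02), *Rtn3* (-0.04) and *Map4* (-0.01) were likewise nearer to 0 than *Celf3* (-0.86), *Srrm4* (-0.80), *Rtn1* (-0.44) and *Map2* (-0.52). This was not so in every family, since the collapsin response mediators *Dpysl2*, which is broadly expressed, and *Dpysl3* both had -0.28, and the G-protein γ subunits *Gng12*, which is broadly expressed, and *Gng3* had -0.04 and -0.02. Among the stathmins, the broadly expressed *Stmn1* had -0.24 (-0.55 to 0.08), close to *Stmn3* with -0.31, while *Stmn2* and *Stmn4* had -0.50 and -0.84. Of 22 broadly expressed relatives in all, 0 passed the threshold in either direction, against 4.32% of all genes lower and 4.44% higher. For a list of this size, 0 is near those shares. Most of the relatives had levels above 10 FPKM, where only 1 of 6 neuronal genes was lower, so level and breadth of expression were not separated. The median of the 22 was -0.04, and the differences between relatives were not tested.

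Other genes of neurons, listed with earlier results of these data known, were lower in KO-NTD embryos in smaller shares. Of all genes, 4.32% were lower and 4.44% higher, and the 1 gene higher in each of the next 2 lists is near that share. Of 30 further axon and neurite genes, 6 were lower and 1 was higher in KO-NTD embryos, with a median log2 ratio of -0.18. This list shares *Stmn1* and *Dpysl2* with the broadly expressed relatives. *Dclk1*, a kinase related to doublecortin, was at 3.02 FPKM in KO-NTD against 4.93 FPKM in KO-N embryos (log2 ratio -0.69, -1.12 to -0.26), and the collapsin response mediator *Dpysl4* at 4.17 against 6.77 FPKM (-0.68, -1.07 to -0.30). *Map6*, which stabilises microtubules, had a log2 ratio of -0.50 (-0.91 to -0.09). Of 26 further synapse and transmitter genes, 6 were lower and 1 was higher (median -0.14). Examples are the secretory granule gene *Scg3*, at 0.93 against 1.55 FPKM (-0.68, -1.25 to -0.11), and *Syt11*, at 8.20 against 12.1 FPKM (-0.55, -0.88 to -0.22). *Cplx2*, a complexin of vesicle release, had -0.32 (-0.66 to 0.02).

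Of 25 further neuronal regulators, 9 were lower and 0 higher in KO-NTD embryos, against 4.32% and 4.44% of all genes. The median log2 ratio of this list was -0.14. *Onecut2*, a factor of early motor neurons, had a log2 ratio of -0.76 (-1.16 to -0.37). *Phox2a*, a factor of visceral motor and autonomic neurons, had -0.70 with a wide interval, -2.93 to 1.53. *Rest*, whose product represses many neuronal genes through the RE1 element, was at 10.5 FPKM in KO-NTD embryos and 10.2 FPKM in KO-N embryos. The 41 genes thus had a lower median, -0.50, than any of these 3 further neuronal lists.

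**Figure D3:**
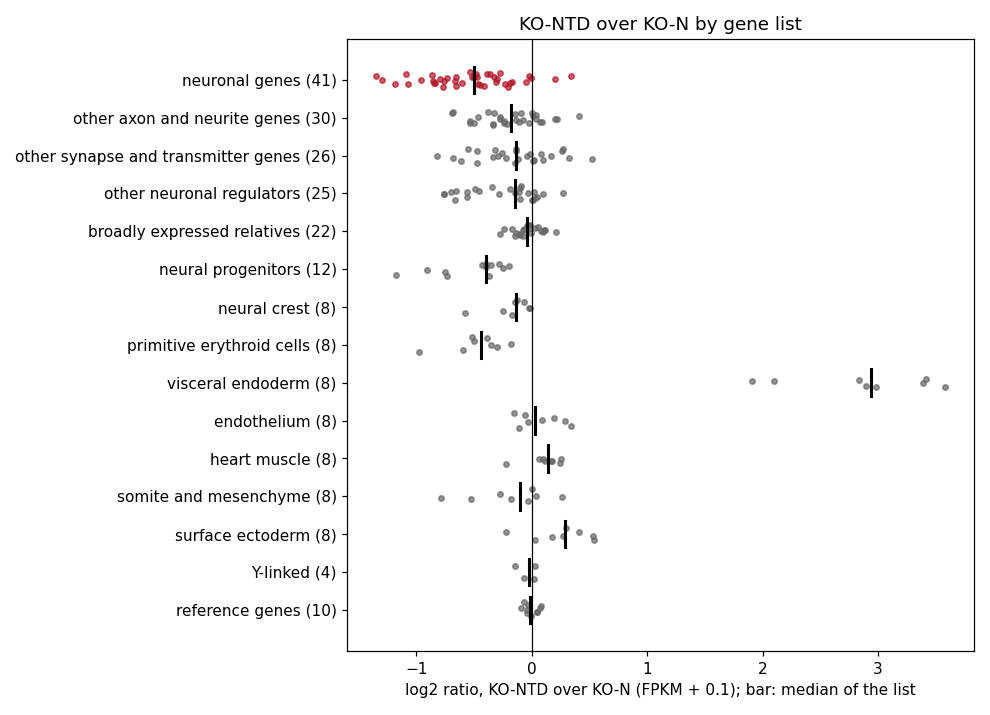
Log2 ratios of KO-NTD over KO-N by gene list, with the 41 neuronal genes in red at the top and the number of genes in brackets. Each point is a gene and each bar the median of its list. The medians are -0.50 for the neuronal genes, -0.39 for neural progenitors, -0.44 for primitive erythroid cells, 2.94 for visceral endoderm and -0.02 for reference genes.

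Markers of other cell types of the embryo also differed between the 2 knockout groups. For the counts below, the shares of all genes were 4.32% lower and 4.44% higher. All 8 visceral endoderm markers were higher in KO-NTD embryos, with a summed level of 138 FPKM in KO-NTD against 24.8 FPKM in KO-N embryos and a median log2 ratio of 2.94. *Apoa1*, an apolipoprotein of this epithelium, was at 21.4 FPKM in KO-NTD against 1.91 FPKM in KO-N embryos. Primitive erythroid markers were lower in 4 of 8, with sums of 3072 FPKM in KO-NTD against 4697 FPKM in KO-N embryos, and *Hbb-y*, an embryonic globin, had a log2 ratio of -0.97 (-1.31 to -0.64). Surface ectoderm markers were higher in 3 of 8, *Krt8* (0.54, 0.22 to 0.85), *Krt18* (0.53, 0.22 to 0.84) and *Cdh1* (0.41, 0.09 to 0.73). The other markers of that list did not pass the threshold, and its lowest ratio was -0.22. Its sums were 259 against 187 FPKM, of which *Krt8* gave 115 against 79.2 FPKM and *Krt18* 86.4 against 59.8 FPKM. No list had a marker at 0 in either group apart from the further neuronal regulators, and the part of these cell types in the neuronal values was not tested.

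Neural progenitor markers were lower in 5 of 12 genes and higher in 0, against 4.32% and 4.44% of all genes. Their sums were 215 FPKM in KO-NTD against 293 FPKM in KO-N embryos, with a median log2 ratio of -0.39. *Pou3f3*, a POU factor of the neural tube, had the lowest ratio of that list, at 3.27 FPKM in KO-NTD against 7.53 FPKM in KO-N embryos (-1.18, -1.52 to -0.84). *Fabp7*, the fatty acid-binding protein of radial glia, was at 6.62 against 12.5 FPKM (-0.91, -1.46 to -0.36), and *Pou3f2* had -0.75 (-1.08 to -0.42). The summed level of the 41 neuronal genes was 180 FPKM in KO-NTD against 237 FPKM in KO-N embryos, and a smaller share of neural tissue was not separated from a lower level of the neuronal genes within it. Neural crest markers had 1 of 8 lower (*Tfap2b*, -0.58, -0.95 to -0.21; median of the list -0.14) and markers of the somite and mesenchyme 2 of 8 (median -0.10). Those of the endothelium and heart muscle had none past the threshold in either direction, with medians of 0.03 and 0.14. None of 10 reference genes passed it either, with a median of -0.02.

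The comparison of KO-NTD embryos with the column headed Control uses the same KO-NTD values a second time. In it, KO-NTD embryos were lower in 19 of the 41 genes (4.11% of all genes) and higher in 1, *Prph* (3.83% of all genes). The median log2 ratio was -0.39. *Elavl3* was again the lowest, with 0.896 FPKM in KO-NTD against 2.02 FPKM in the column headed Control and a log2 ratio of -1.09, followed by *St18* with 0.108 against 0.311 FPKM (-0.98). *Prph* was at 0.331 FPKM in KO-NTD against 0.220 FPKM in that column, a log2 ratio of 0.43. *Prph* has a mean under 0.5 FPKM and an interval that includes 0. The interval was below 0 in 18 of the 41, against 1.56% of all genes, and 9 genes were lower by 1.5-fold. With a pseudocount of 1 in place of 0.1, 7 genes were lower by at least 0.4.

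KO-N embryos lay close to the column headed Control. Of the 41 genes, 0 were at least 0.4 lower in KO-N embryos (2.44% of all genes) and 2 were at least 0.4 higher (1.86% of all genes), *Scrt2* with 0.432 FPKM in KO-N against 0.283 FPKM in that column (log2 ratio 0.47) and *Dcx* with 1.43 against 1.02 FPKM (0.45). The median log2 ratio was 0.09, and 29 of the 41 genes were above 0, against 40.1% of all genes, among them genes with a ratio of 0. Where the 2 averaged 0.5 FPKM or more, the median was 0.09 for the neuronal genes and 0.002 for all such genes. No interval excluded 0 in either direction, against 0.612% of all genes below and 0.329% above.

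A WT value is given for 23 of the 41 genes, all in the deposited comparison of KO-NTD with WT, and for 0 in the comparison of KO-N with WT. That comparison lists the 789 genes the authors marked for it, so these 23 were selected for their difference from WT and the direction is no independent finding. *Elavl3* was at 0.897 FPKM in KO-NTD against 2.33 FPKM in WT embryos, a log2 ratio of -1.29, and *Myt1* at 0.132 against 0.374 FPKM (-1.03). *Elavl4* was at 2.49 FPKM in KO-NTD against 5.06 FPKM in WT embryos (-0.99), *Dcx* at 0.577 against 1.16 FPKM (-0.90) and *Tubb3* at 13.4 against 21.1 FPKM (-0.65). Over the 23 genes the log2 ratio was between -1.29 and -0.30, with a median of -0.65, and the WT value lay above the upper KO-NTD bound in each.

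For the same 23 genes, the KO-N level of the table of all genes can be set beside WT, since KO-NTD values differed between the tables by at most 0.161%. KO-N was above WT in 11 of the 23 and below it in 12. Its level was 86.7% to 127% of the WT level, with a median of 98.4%. The WT value lay within the KO-N bounds in all 23. These genes were listed for a difference between KO-NTD and WT, a selection that can favour high WT values. The place of KO-N beside WT thus holds for this selected set alone. Neuronal genes without a WT value were not compared with WT. The column headed Control was below WT in all 23, at 81.6% to 98.2% of the WT level, and above KO-NTD in all 23. Of the 41 neuronal genes, with or without a WT value, KO-NTD was below that column in 39 and above it in 2. The part of the selection for a difference between KO-NTD and WT in the place of that column was not tested. *Tubb3*, for example, was at 13.4 FPKM in KO-NTD embryos, 22.9 FPKM in KO-N embryos, 20.1 FPKM in the column headed Control and 21.1 FPKM in WT embryos.

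**Figure D4:**
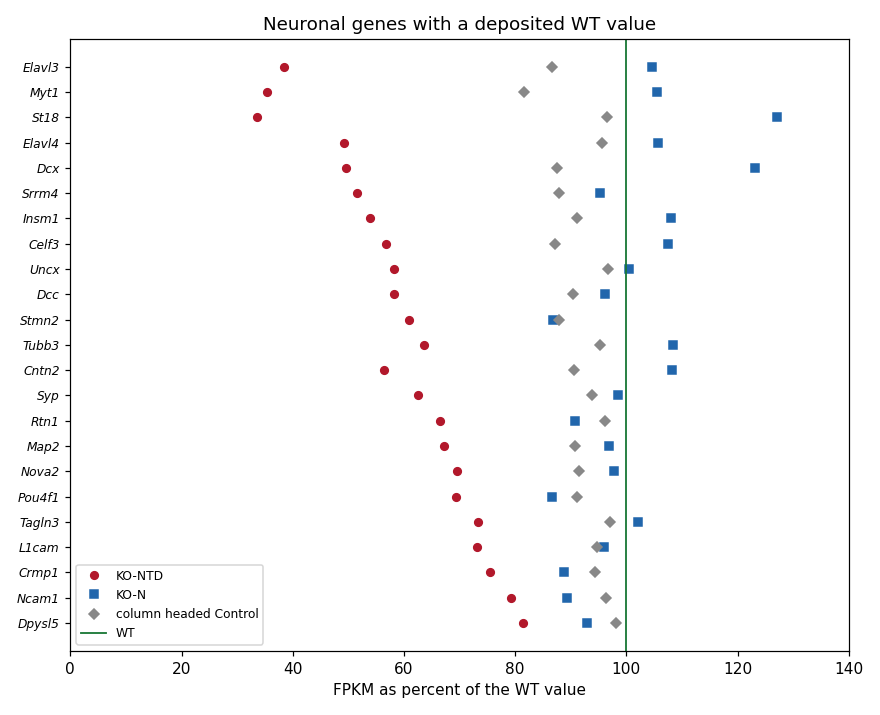
Levels of the 23 neuronal genes with a deposited WT value, as a percent of the WT FPKM. Red circles are KO-NTD, blue squares KO-N, grey diamonds the column headed Control and the green line WT at 100%. KO-N lies at 86.7% to 127% of WT, on both sides of the line, and the column headed Control at 81.6% to 98.2%. KO-NTD is left of both in every gene. The authors listed these genes for a difference between KO-NTD and WT, so the place of KO-NTD left of the line is no independent finding. The place of KO-N beside the line holds for these selected genes alone.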

How the data were processed

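RNA of 9 samples of E9.5 mouse embryos, 3 samples in each of 3 groups and 3 embryos in each pool, was enriched for poly-A and sequenced by the authors from strand-specific libraries as single-end reads of 50 bases. Reads were groomed and mapped to mm10 with TopHat2 0.7, and the authors computed with Cufflinks 2.2.1 the deposited FPKM and the bounds around it, tools also named in the submitters' processing notes. The gene annotation and the strand setting of the counting are not given in the sources used here. Read numbers per sample are listed in the study's supplement and were not used here, since the deposited tables hold no read totals. Of 24357 rows, 27 carried a date where a gene name should be and were dropped. The remaining columns of the 3 deposited comparison tables hold the authors' fold changes, test values, p-values, q-values and significance marks, and they were not used. The comparison of KO-NTD with KO-N was not used either. The table of all genes holds the FPKM of both groups, but not the authors' tests of that comparison.

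The KO-NTD and KO-N columns were matched to the groups by their names, Ntd and Ko. Log2 ratios were computed from FPKM + 0.1. The distance from FPKM to upper bound was read as 2 standard deviations, combined over both groups, and multiplied by 1.96 for the 95% interval, which covers only the uncertainty in the bounds. The threshold of 0.4 on the log2 scale was taken from the fold the study used for its network. Counts and medians of the neuronal genes were set beside those of all genes, with no test and no p-value. The interval calculation was checked on simulated data.

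The genes named are all 41 neuronal genes, *Scarb1*, the Y-linked genes and, from each list, up to 3 genes with the largest absolute log2 ratio of KO-NTD over KO-N among those with a mean of at least 1 FPKM. A gene that this rule names is not reported here. *Rest* and the broadly expressed relatives named beside a family were chosen after their values were seen. Members and lists were chosen with earlier results of these data known. Promoter windows came from RefSeq on GRCm38.p6, with 23 of the 27 starts equal to the edge of the deposited locus, and exon overlap from GENCODE vM21, where 7 of the 41 genes share over 10% of their exon bases with another gene. Coordinates are those of the deposited table written from 1. Alternatives were pseudocounts of 0.01 and 1, filters at a mean of 0.5 and 1 FPKM, rescaling to a median ratio of 0, thresholds of 1.5-fold and 2-fold, the interval in place of the threshold and, added after seeing the data, leaving out the 7 overlapping genes. Python 3.11.15, pandas 2.3.3, NumPy 2.4.6, SciPy 1.17.1 and Matplotlib 3.10.9 were used.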

Additional observations from a re-analysis of the deposited data

How the results depend on the processing

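For KO-NTD against KO-N, the 26 genes lower became 12 with a pseudocount of 1, 15 of 26 where the mean was 1 FPKM or more and 5 at 2-fold, and the 0 genes higher became 1 with a pseudocount of 0.01. The count was 18 at 1.5-fold, 22 by the interval, 25 after rescaling and 21 without the 7 genes that share exon bases, an alternative added after seeing the data. For KO-NTD against the column headed Control, the 19 genes lower became 7 with a pseudocount of 1, 10 where the mean was 1 FPKM or more, 9 at 1.5-fold and 1 at 2-fold. The 1 gene higher became 2 with a pseudocount of 0.01 and 0 with a pseudocount of 1, with either filter, at 1.5-fold, at 2-fold and by the interval. For KO-N against that column, the 2 genes higher became 4 with a pseudocount of 0.01, 1 with either filter, and 0 with a pseudocount of 1, at 1.5-fold, at 2-fold and by the interval. Every median moved by less than 1 SE of a single ratio under the alternatives run, and that of KO-NTD over KO-N was between -0.53 and -0.30. Of 123 single ratios under other settings, 104 stayed within 1 SE and 19 moved further. Of the genes counted as lower, 0 changed sign, and the ratios of *Myt1l* and *Gng3*, both near 0, did. Fewer genes entered under the filters, and a larger pseudocount shrinks ratios of low genes by construction. Leaving out each replicate was not run, since each group has 1 combined value. No paired analysis was possible because the columns carry no replicate numbers.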
